A study of Saccharomyces cerevisiae with 12 samples.

Results

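The genes described here are 60 ribosome biogenesis factors of Saccharomyces cerevisiae, chosen by name. A gene was taken if a probe set had, as its only symbol, UTP, NOP, RRP, RPF, NOC, NSA or NUG followed directly by a number. This gave 77 probe sets for 60 genes, out of 5656 genes with a probe set of 1 symbol. The probe set with the highest mean log2 signal over the 12 arrays stood for its gene. All 60 passed the filter on low signals, which kept 5360 genes in all, and 55 of the 60 were over the background on every array. The cultures were the commercial wine strain EC1118 and M25, a wild-type strain of a university collection. Each strain was grown in a lipid-free synthetic grape juice (SJ, glucose 200 g/l, pH 3.3) and in FSJ, the same medium supplied with ergosterol and oleic acid at 15 mg/l each. All cultures, which were started at 1000000 cells/ml from a 24 h preculture in SJ, were grown at 28 °C and harvested at 60 h. Each of the 4 groups held 3 biological replicates, per the labels, and each replicate was measured on 1 one-colour Affymetrix array. Each strain is a single isolate, so a strain difference is a difference between these isolates.

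Ribosomes are assembled in the nucleolus, where the long precursor ribosomal RNA (pre-rRNA) made by RNA polymerase I is folded, modified, cleaved and bound by ribosomal proteins. The UTP proteins form the UTP-A, UTP-B and UTP-C subcomplexes and other parts of the small-subunit processome, the early particle of the 40S subunit. Box C/D snoRNPs methylate the pre-rRNA and, through U3, take part in its cleavage. Large-subunit factors build and export the pre-60S particle, and the exosome trims RNA from its 3′ end. In yeast these genes belong to a large set that is transcribed together with growth and is controlled by nutrient signals through the factors Sfp1, Stb3, Dot6 and Tod6.

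Array signals are given as deposited, on the linear MAS5 scale, where a trimmed mean (2% left out at each end) ran from 300.2 to 300.3 over the arrays. The background of an array, taken as the 25th percentile of its yeast probe sets, was 16.6 to 21.7. Each signal is relative to the whole array, so less RNA of a gene and more RNA of the other genes cannot be told apart. Differences are on the log2 scale, FSJ over SJ or EC1118 over M25, and tests are limma's, adjusted by Benjamini-Hochberg over all 7349 probe sets kept. A gene is said to have risen or fallen where the adjusted p was under 0.05. The median fitted difference of all 5360 genes was -0.11 for the lipid effect in M25, 0.079 for that in EC1118, -0.035 for EC1118 over M25 in SJ and 0.17 for EC1118 over M25 in FSJ, and the values of the 60 genes are set beside these.

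A pair of arrays stood apart for these genes. EC1118 in SJ replicate 1 was the lowest array of its group for 52 of the 60 genes, against 34.4% of all genes. EC1118 in FSJ replicate 2 was the highest of its group for 45 of the 60, against 33.4% of all genes, and it had the lowest correlation with another array of its group, 0.919 (log2 signals of all probe sets kept, against replicate 3). Relative to each gene's mean over the 12 arrays, the median of the 60 genes was -0.35 on the former array and 0.52 on the latter. The other 10 arrays lay between -0.16 and 0.19. Within EC1118 in SJ alone the arrays ranged from -0.35 to 0.14. Counts and medians that rest on these arrays are given with and without them. The pair was picked by the values of these genes. Leaving it out was therefore bound to lower their lipid effect in EC1118 and their strain difference in FSJ, and to raise that in SJ. The values without the pair show how far the results lean on it, and are no independent test.

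**Figure D1:**
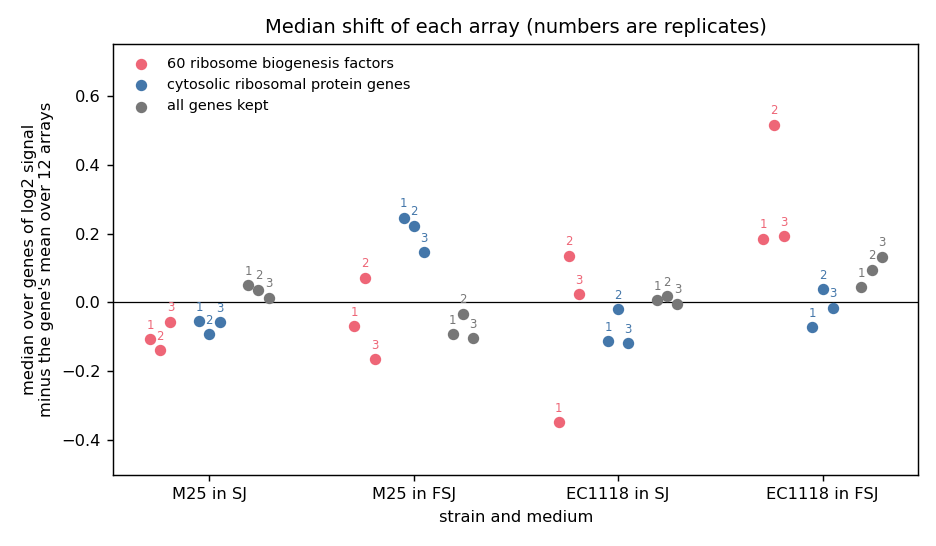
Median over genes of the log2 signal minus the gene's mean over 12 arrays, for each array (points, numbered by replicate) and for 3 gene sets: the 60 ribosome biogenesis factors, the 80 cytosolic ribosomal protein genes and all 5360 genes kept. The biogenesis factors spread widely within EC1118, from -0.35 on EC1118 in SJ replicate 1 to 0.52 on EC1118 in FSJ replicate 2, while the medians of the ribosomal protein genes and of all genes lie between -0.12 and 0.13 on the 6 EC1118 arrays.

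The first comparison asked how the lipid supplement altered these transcripts in M25. Among the 60 genes 1 rose and 0 fell, against 3% of all genes that rose and 6.55% that fell. At an unadjusted p under 0.05, 4 of the 60 were higher and 0 lower, which is 6.67% and 0% against 8.66% and 18.9% of all genes. The median of the 60 was -0.0060, with 29 fitted above 0 and 31 below, and 44 lay above the median of all genes. The share that rose was below the background, so the group as a whole showed no more calls than other genes. In 9 of the 60 all FSJ arrays were above all SJ arrays, and in 1, RRP40, all were below. Among all genes 11.9% and 26% did so.

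RPF2, whose protein brings the 5S RNA particle into the pre-60S subunit together with Rrs1, was the gene that rose. Its signals in M25 were 272, 220.2 and 268 in SJ and 544, 625 and 455 in FSJ. In EC1118 they were 250.4, 242 and 391 in SJ and 326, 546 and 493 in FSJ. The M25 groups were far apart, whereas in EC1118 the highest SJ array was above the lowest FSJ array. RPF2 rose by 1.09 in M25 (SE 0.23, limma adjusted p = 0.0142) and its fitted value in EC1118 was 0.63 (adjusted p = 0.222). The rise in M25 missed the threshold without SJ replicate 2 (0.99, adjusted p = 0.0591) and without FSJ replicate 2 (0.98, adjusted p = 0.0526). Averaged over the strains RPF2 rose by 0.86 (SE 0.16, limma adjusted p = 0.00666), and this held under each of the 21 alternatives run.

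In EC1118 the fitted values of nearly all 60 genes lay above 0, but few were separated from the replicate spread. RRP6 rose and 0 genes fell, so 1.67% of the 60 rose, against 0.784% of all genes that rose and 1.32% that fell. The median of the 60 was 0.39, 0.31 above that of all genes, and 59 of the 60 were fitted above 0, compared with 3342 of the 5360. At an unadjusted p under 0.05, 21 of the 60 were higher and 0 lower, which is 35% against 11.8% of all genes. In 18 genes all FSJ arrays were above all SJ arrays and in 0 all were below, against 14% and 6.47% of all genes.

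That shift was smaller without the pair of arrays that stood apart, as was bound to follow from their choice by the values of these genes. Without EC1118 in SJ replicate 1 the median of the 60 was 0.25, without EC1118 in FSJ replicate 2 it was 0.29, and without both it was 0.14, with 46 of the 60 above 0 and 0 called. At an unadjusted p under 0.05, 1 of the 60 was then higher, 1.67% against 7.16% of all genes. The remaining arrays, 2 in each medium, were separate with FSJ higher in 20 of the 60 genes and lower in 1, which is 33.3% and 1.67% against 27.3% and 11.8% of all genes. The median of all genes without both was 0.081. The pooled SD of the 60 genes' median log2 signal between arrays of a group was 0.22 on the log2 scale. No test was made of the median itself.

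**Figure D2:**
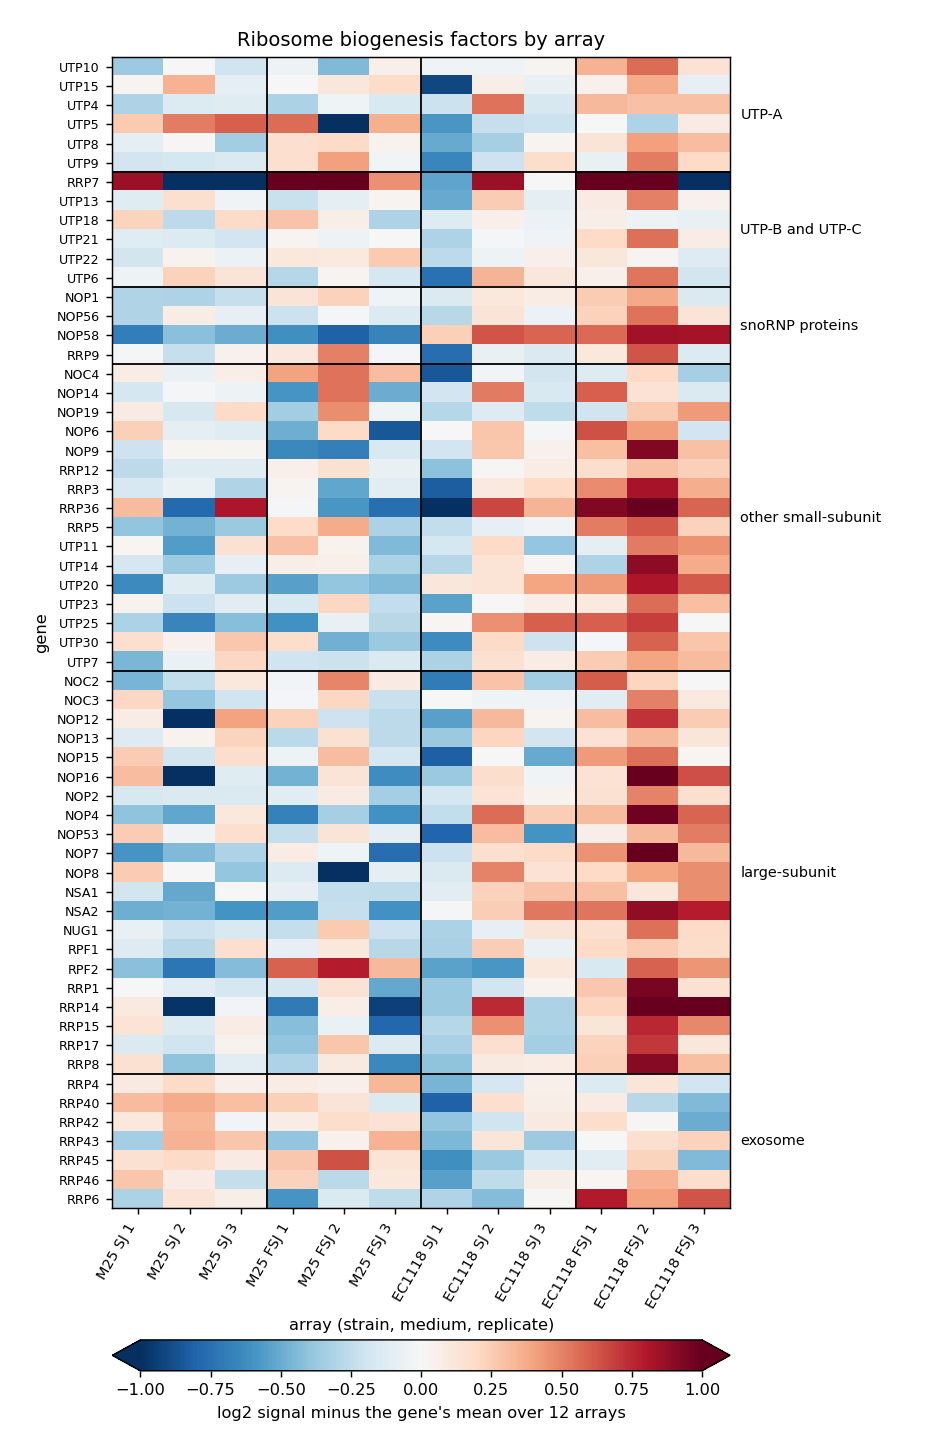
Log2 signal of each of the 60 genes minus its mean over the 12 arrays (colour; values over 1 in size take the end colours), with genes in rows by role and arrays in columns by strain, medium and replicate. EC1118 in SJ replicate 1 is blue and EC1118 in FSJ replicate 2 red for most genes, with 4 and 57 of the 60 genes above their own mean, and RRP7 and RRP36 are uneven within groups.

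RRP6, the nuclear 3′ to 5′ exonuclease attached to the exosome, was the gene that rose in EC1118. Its signals in EC1118 were 143, 130.4 and 177 in SJ and 306, 233 and 272.5 in FSJ. In M25 they were 141, 194 and 183 in SJ and 117, 159 and 147 in FSJ. EC1118 in FSJ stood above the other 9 arrays, which overlapped. RRP6 rose by 0.85 in EC1118 (SE 0.18, limma adjusted p = 0.0366), with a fitted value of -0.29 in M25 (adjusted p = 0.354). The call in EC1118 was lost in 12 of the 22 alternatives, among them leaving out both arrays that stood apart (0.92, adjusted p = 0.104), and the adjusted p ranged from 0.0271 to 0.134.

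Averaged over both strains, 3 of the 60 genes rose (5%) and 0 fell, against 4.63% and 5.82% of all genes. The median was 0.20, with 54 of the 60 above 0, compared with a median of -0.012 for all genes. Without the pair of arrays that stood apart 1 rose, the median was 0.086 and 41 were above 0. RRP5 and UTP8 rose along with RPF2. RRP5 is an RNA-binding protein needed for both subunits. M25 had signals of 382, 363 and 388 in SJ and 571, 650.1 and 403 in FSJ, and in EC1118 423, 474 and 490 in SJ and 717, 766 and 589 in FSJ. FSJ lay above SJ on all arrays of each strain, though only just in M25 for FSJ replicate 3. RRP5 rose by 0.53 (SE 0.12, limma adjusted p = 0.0177), with nearly equal fitted values of 0.49 in M25 (adjusted p = 0.0956) and 0.57 in EC1118 (adjusted p = 0.132). Without the pair of arrays that stood apart its adjusted p was 0.0801.

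UTP8, a UTP-A protein that binds the pre-rRNA early, had signals in M25 of 127, 137 and 107 in SJ and 153, 155 and 139 in FSJ. In EC1118 they were 96, 108 and 139 in SJ and 148.5, 181 and 168 in FSJ. FSJ was above SJ on all arrays in each strain, by small steps. UTP8 rose by 0.41 (SE 0.11, limma adjusted p = 0.0450), a call that was lost in 12 of the 21 alternatives, with adjusted p-values up to 0.164.

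The difference between the lipid effects of the strains was tested directly, as the EC1118 effect minus the M25 effect. In limma's test 0 of the 60 genes passed in either direction, against 0.112% of all genes above 0 and 0.0746% below. At an unadjusted p under 0.05, 8 of the 60 were above 0 and 0 below, 13.3% in each of the 60 genes and all genes. The lowest adjusted p was 0.125, that of RRP6, with a difference of 1.14 (SE 0.26). NOP9 (0.91), RRP15 (0.95), NOP15 (0.83), UTP30 (0.89) and NOP58 (0.42) followed in order of p, with adjusted p-values from 0.228 to 0.304. The median of the 60 was 0.39 against 0.20 for all genes, and without the pair of arrays that stood apart it was 0.12, with 40 of the 60 above 0, 1 of them at an unadjusted p under 0.05, and 2 below 0 at such a p. The 60 genes are therefore not shown to respond differently in the strains.

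**Figure D3:**
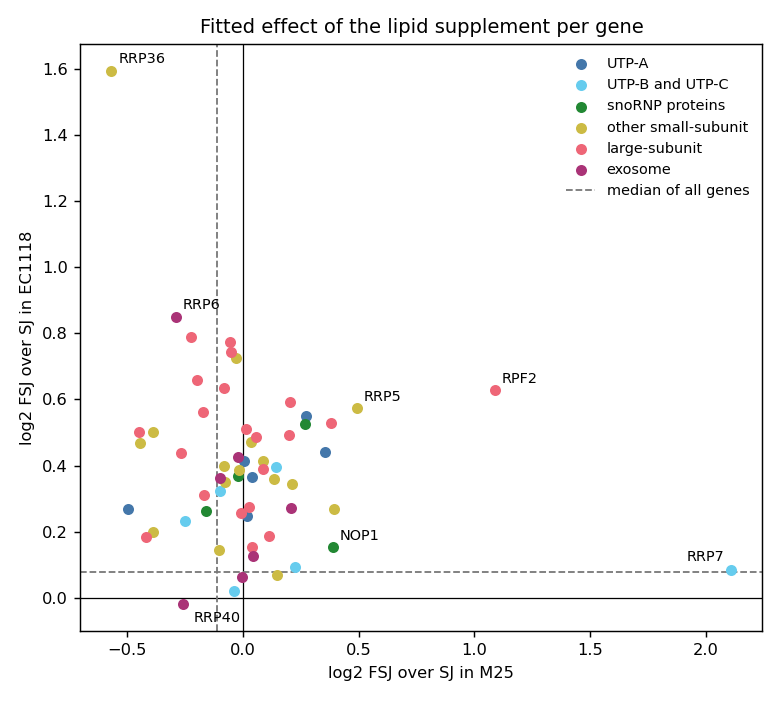
Fitted log2 FSJ over SJ of the 60 genes in M25 (horizontal axis) and in EC1118 (vertical axis), coloured by role; dashed lines are the medians of all genes, -0.11 and 0.079. Points spread around 0 in M25 and lie almost all above 0 in EC1118, RPF2 and RRP6 are the genes that rose in M25 and in EC1118, and RRP7 and RRP36 have far larger standard errors or signals near the background.

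By role, the UTP-A proteins had medians of 0.029 in M25 and 0.39 in EC1118 over 6 genes, and 0.18 in EC1118 without the pair of arrays that stood apart. UTP9 had signals in M25 of 63.4, 63.9 and 65.2 in SJ and 81.3, 96.2 and 70.9 in FSJ, and a fitted value of 0.36 (adjusted p = 0.337). Its groups in M25 did not overlap, but in EC1118 they did. Signals of UTP5 were uneven, with 313, 104 and 272 in M25 in FSJ beside 255, 303 and 322 in SJ, and a fitted value of -0.50. Replicate 2 in FSJ was far below the other arrays. UTP10, a large scaffold protein of helical repeats, had signals in EC1118 of 630.5, 629.5 and 660.1 in SJ and 823, 952 and 716 in FSJ, which did not overlap, and a fitted value of 0.37 (adjusted p = 0.289).

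The UTP-B and UTP-C proteins had medians of 0.052 in M25 and 0.16 in EC1118 over 6 genes, the smallest median in EC1118 of the 6 roles. Without the pair it was -0.015 and still the smallest. UTP21 is a repeat protein of UTP-B. In M25 its signals were 267, 264 and 255 in SJ and 295, 281 and 290.4 in FSJ, and in EC1118 they were 234, 287 and 284 in SJ and 334, 425 and 306 in FSJ. Each strain's FSJ arrays lay just above its SJ arrays, with fitted values of 0.14 and 0.40 (adjusted p = 0.575 and 0.213). UTP22 of UTP-C had 0.23 in M25 and 0.093 in EC1118, UTP6 had -0.25 and 0.23, and UTP13 had -0.10 and 0.32, and in limma's test the adjusted p was above 0.05 for all of these. RRP7, the partner of UTP22, had the largest fitted value in M25, 2.11, but with an SE of 0.91 and an adjusted p of 0.171. Its signals in M25 in SJ were 101, 10.4 and 13.3, with 1 array far above the others, and 3 of its 12 arrays were not over the background.

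Among the 4 box C/D snoRNP proteins the medians were 0.12 in M25 and 0.32 in EC1118, or 0.096 without the pair. NOP1, the fibrillarin methyltransferase, had signals in M25 of 1528, 1525 and 1605 in SJ and 2067, 2219 and 1828 in FSJ. These groups did not overlap, and the fitted value was 0.39 (SE 0.13, limma adjusted p = 0.0953). NOP1 passed in M25 in 3 alternatives: when only the groups compared were fitted (adjusted p = 0.0451), without EC1118 in FSJ replicate 3 (adjusted p = 0.0316), and when arrays were centred on their medians (adjusted p = 0.0197), a scaling that moved the median of all genes in M25 from -0.11 to 0.075. In EC1118 its signals were 1710, 2025 and 1983 in SJ and 2251, 2457 and 1711 in FSJ, which overlapped, with a fitted value of 0.15. NOP56, a core protein beside NOP58, had -0.019 and 0.37, and RRP9, the U3-specific protein, had 0.27 and 0.53, with no call in either strain.

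The 16 other small-subunit factors had medians of -0.021 in M25 and 0.39 in EC1118, with all 16 above 0 in EC1118. Without the pair the EC1118 median was 0.16, with 13 above 0. NOC4, which acts with NOP14 in the 40S precursor, had signals in M25 of 165, 150 and 164 in SJ and 207, 229 and 194 in FSJ. The groups were apart, with a fitted value of 0.39 (adjusted p = 0.261). NOP9, an RNA-binding protein of the 20S pre-rRNA, had 123, 144 and 144 in SJ and 90.3, 88 and 127 in FSJ in M25, and 124, 170 and 146 in SJ and 174, 268.5 and 173 in FSJ in EC1118. The EC1118 groups did not overlap while the M25 groups did, with fitted values of 0.47 (adjusted p = 0.31) and -0.45 (adjusted p = 0.205). RRP3, a DEAD-box RNA helicase, had 95.1, 180.5 and 193 in SJ and 234, 297 and 216 in FSJ in EC1118, with a fitted value of 0.73 (adjusted p = 0.198). The lowest of these was EC1118 in SJ replicate 1. UTP30 had -0.39 in M25 and 0.50 in EC1118, on signals of 26.3 to 61.1 that lay close to the background.

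The 21 large-subunit factors had medians of -0.0065 in M25 and 0.50 in EC1118, the largest in EC1118 of the 6 roles, and all 21 were above 0 in EC1118. Without the pair the median there was 0.21, still the largest, with 21 above 0. NOP15, an RNA-binding factor of the early pre-60S particle, had 95.3, 168 and 119 in SJ and 225.5, 246 and 170.3 in FSJ in EC1118. All its FSJ arrays were above its SJ arrays, with a fitted value of 0.77 (SE 0.23, limma adjusted p = 0.13), and -0.053 in M25. NSA2, a factor of later pre-60S particles, had 0.49 in EC1118 (adjusted p = 0.184) and 0.058 in M25. RRP15 had -0.45 in M25 and 0.50 in EC1118, NOP8 had -0.42 and 0.19, and NOC2 had 0.38 and 0.53, with adjusted p-values above 0.05 throughout in limma's test.

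The 7 exosome proteins had medians of -0.020 in M25 and 0.27 in EC1118, the latter -0.0098 without the pair. Besides RRP6, the core proteins did not pass in either strain. RRP40, an RNA-binding cap protein, was the gene whose FSJ arrays were all below its SJ arrays in M25, with 630.2, 655 and 624 in SJ and 596, 553 and 457 in FSJ. Its fitted values were -0.26 in M25 (adjusted p = 0.527) and -0.019 in EC1118, where it was the 1 gene of the 60 fitted below 0. RRP45, RRP46 and RRP43 of the ring had 0.21, -0.020 and -0.097 in M25 and 0.27, 0.43 and 0.36 in EC1118.

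Between the strains in SJ, 4 of the 60 genes were higher in EC1118 (6.67%) and 0 lower, against 9.05% and 9.09% of all genes. The median of the 60 was 0.018, and 32 were fitted above 0. Without the pair of arrays that stood apart the median was 0.15, with 42 above 0 and 4 called. The share called was thus below that of all genes in each direction. The 4 genes were NOP58, NSA2, UTP25 and UTP20. In FSJ, 19 of the 60 were higher in EC1118 (31.7%) and 0 lower, against 24.4% and 10.4% of all genes. The median was 0.37, compared with 0.17 for all genes, with 49 above 0. Both comparisons use the arrays of the lipid effects, so they are not independent of them.

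The count in FSJ depended on the scaling, on the groups fitted and on single arrays. With quantile normalization 7 of the 60 were higher and 3 lower, against 16.5% and 13.6% of all genes. With arrays centred on their medians 7 were higher and 4 lower, against 13.1% and 20.1%. The share of the 60 that was higher was thus below that of all genes under both scalings. The same 7 were higher under both: NOP4, NOP9, NOP58, NSA2, RRP6, RRP14 and UTP20. Of all genes called in FSJ, 70.2% were higher in EC1118 on the deposited scale, 54.7% after quantile normalization and 39.5% after centring. Without EC1118 in FSJ replicate 2, 7 of the 60 were higher and 2 lower. Without both arrays that stood apart 8 were higher and 2 lower (NOC4 by -0.65 and RRP45 by -0.63), beside 21.4% of all genes higher. The share of the 60 that was higher was then below that of all genes. Without M25 in FSJ replicate 1 the number higher was 11, and without M25 in FSJ replicate 3 it was 9. With only the groups compared in the fit it was 11.

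NSA2 was higher in EC1118 in each medium under every alternative run. In M25 its signals were 320, 323 and 296 in SJ and 305, 383 and 294 in FSJ, and in EC1118 they were 441.5, 531 and 647 in SJ and 649, 832 and 772 in FSJ. All EC1118 arrays were above all M25 arrays. The difference was 0.77 in SJ (SE 0.16, limma adjusted p = 0.00578) and 1.20 in FSJ (SE 0.16, adjusted p = 0.000183).

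UTP20, a very large protein of the small-subunit processome, had signals in M25 of 117.5, 168 and 142 in SJ and 125, 140.2 and 135 in FSJ. In EC1118 they were 198, 202 and 241 in SJ and 245.5, 321 and 280.1 in FSJ. Again the strains did not overlap, with 0.59 in SJ (SE 0.16, limma adjusted p = 0.0214) and 1.07 in FSJ (SE 0.16, adjusted p = 0.000357). UTP25, a helicase-like protein of the small-subunit processome, had 102, 80.5 and 95.1 in M25 in SJ and 129, 175 and 193 in EC1118 in SJ, which were apart, with 0.83 (SE 0.22, limma adjusted p = 0.0203). In FSJ its difference was 0.75 (adjusted p = 0.021), a call lost in 7 of the 22 alternatives, with adjusted p-values up to 0.0988, both rescalings and leaving out the pair of arrays among them. In SJ each call was lost in 4 of the 22 alternatives, with adjusted p-values up to 0.113 for UTP20 (without M25 replicate 1 or 3, without EC1118 replicate 3, and on averaging its probe sets) and up to 0.0839 for UTP25 (without replicate 2 or 3 of either strain).

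Of the 19 genes higher in EC1118 in FSJ, 11 were among the 21 large-subunit factors, compared with 5 of 16 other small-subunit factors, 1 of 6 UTP-A, 0 of 6 UTP-B and UTP-C, 1 of 4 snoRNP and 1 of 7 exosome proteins, beside 24.4% of all genes. These counts by role are for the deposited scale. After quantile normalization and after centring, 3 of the 21 large-subunit factors (NOP4, NSA2 and RRP14) and 2 of the 16 other small-subunit factors were higher, beside 16.5% and 13.1% of all genes. Without the pair of arrays 3 of the 21 and 3 of the 16 were higher, beside 21.4%. NOP4, an RNA-binding protein of the pre-60S particle, had 84.4, 107 and 88.7 in M25 in FSJ and 168.5, 264 and 202 in EC1118 in FSJ, with a difference of 1.16 (SE 0.24, limma adjusted p = 0.003). NOP9 differed by 1.00 (SE 0.21, limma adjusted p = 0.00313) and RRP6 by 0.94 (SE 0.18, adjusted p = 0.00203), on the signals given above. These 3 genes had separate FSJ arrays in the strains. In SJ, NOP4 differed by 0.46, NOP9 by 0.088 and RRP6 by -0.20, none of them past the threshold. RRP14, which takes part in early steps of both subunits, had in FSJ 74.4, 127 and 63.7 for M25 and 141.5, 274 and 250.3 for EC1118, with a difference of 1.34 (limma adjusted p = 0.0211) that was lost in 5 of the 22 alternatives.

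Among the others higher in EC1118 in FSJ, the base methyltransferases NOP2 and RRP8 differed by 0.40 and 0.77 and the pre-60S scaffold protein NOP7 by 0.89. RRP1, NSA1, NOP8, NOP16 and RRP15 differed by 0.49 to 0.99, and RRP3, UTP7 and UTP10 by 0.50 to 0.76. Their adjusted p-values were 0.0175 to 0.0478, and each of them missed the threshold in some of the alternatives. In the exosome ring and cap, RRP4, RRP40, RRP42 and RRP45 were fitted below 0 in FSJ, with RRP45 at -0.46 (adjusted p = 0.0838). In FSJ RRP45 passed as lower after quantile normalization (-0.64, limma adjusted p = 0.0254) and after centring (-0.70, adjusted p = 0.0141). RRP4 also did (limma adjusted p = 0.0434 and 0.0400). RRP45 signals in SJ were 205, 210.3 and 195 for M25 and 120.5, 143 and 164 for EC1118. Those arrays were apart, with a difference of -0.52 (limma adjusted p = 0.0786). UTP5 was fitted at -0.80 in SJ (adjusted p = 0.115), with 255, 303 and 322 in M25 and 142, 182 and 183 in EC1118, which also were apart. With only the groups compared in the fit, both passed in SJ (limma adjusted p = 0.0303 for RRP45 and 0.00648 for UTP5). UTP5 also passed there without M25 in FSJ replicate 2 (limma adjusted p = 0.00561), and RRP45 without EC1118 in FSJ replicate 3 (adjusted p = 0.0468). After either rescaling neither gene passed in SJ.

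**Figure D4:**
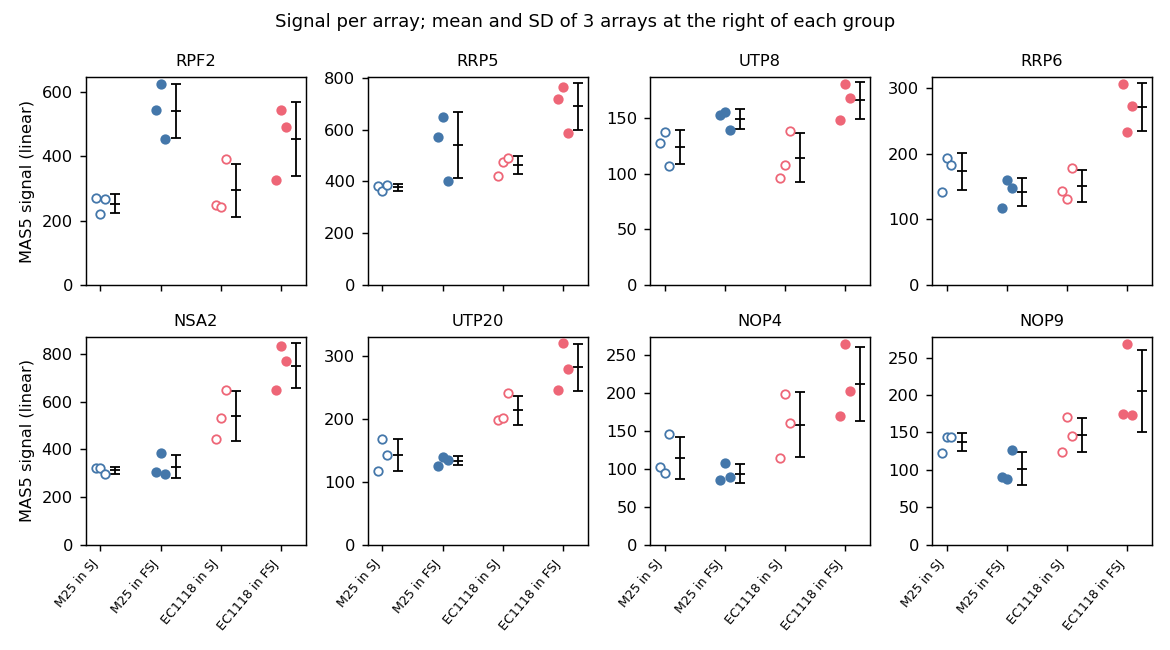
Signal per array (linear MAS5 scale, axes start at 0) of 8 genes that passed a test, by strain and medium; points are arrays (open in SJ, filled in FSJ), and the bar beside each group is the mean and SD of 3 arrays. RPF2, RRP5 and UTP8 are higher in FSJ in each strain on average, RRP6 in FSJ in EC1118, and NSA2 and UTP20 are higher in EC1118 in each medium, while NOP4 and NOP9 overlap between the strains in SJ.

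NOP58, the core box C/D protein paired with NOP56, gave the strongest strain difference, but its probe sets disagreed. On the probe set that stood for it, signals in M25 were 1172, 1416 and 1341 in SJ and 1238, 1081 and 1193 in FSJ. In EC1118 they were 2239, 2927 and 2831 in SJ and 2808, 3388 and 3374 in FSJ. The strains were far apart, by 1.02 in SJ (SE 0.13, limma adjusted p = 0.00016) and 1.44 in FSJ (SE 0.13, adjusted p = 8.13e-06). That probe set carries a suffix for probes shared between sequences.

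The other 3 probe sets of NOP58 differed by -0.16 to 0.12 in SJ, and none passed. The one with the unique suffix had in SJ 1545, 1664.5 and 1553 for M25 and 1443, 1862 and 1918 for EC1118, which overlapped, with 0.12 (limma adjusted p = 0.642). In FSJ it had 1739, 1213 and 1631 in M25 and 1910, 2166 and 2322 in EC1118, with 0.49 (adjusted p = 0.0237). On averaging its probe sets, NOP58 differed by 0.24 in SJ (adjusted p = 0.403) and still passed in FSJ (0.76, adjusted p = 0.00551). Whether the strains differ in sequence under these probes was not tested.

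The probe sets of UTP20 were closer to each other in the strain difference. Of its 10 probe sets 7 were kept. One of these was over the background on 3 of the 12 arrays and on none of M25 in FSJ, so it gives no fold there. The other 6 were fitted higher in EC1118 in FSJ, the smallest by 0.90, and 4 of them passed. In SJ 5 of these 6 were fitted higher and 3 passed. The probe set with the unique suffix had, in SJ, 55.1, 76.6 and 73.4 for M25 against 100.1, 114 and 132 for EC1118, and in FSJ 91.2, 93.2 and 84.8 against 193, 190 and 161. It did not overlap between strains, with 0.76 (limma adjusted p = 0.00622) and 1.01 (adjusted p = 0.000592). In the lipid effect averaged over the strains the probe sets disagreed. The one with the unique suffix rose by 0.53 (limma adjusted p = 0.0141). The one that stood for UTP20 had 0.16 (adjusted p = 0.421), and none of the other kept ones passed. The 6 probe sets of UTP22 differed between the strains by -0.89 to -0.016 in SJ and -0.17 to 0.055 in FSJ, and none passed.

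**Figure D5:**
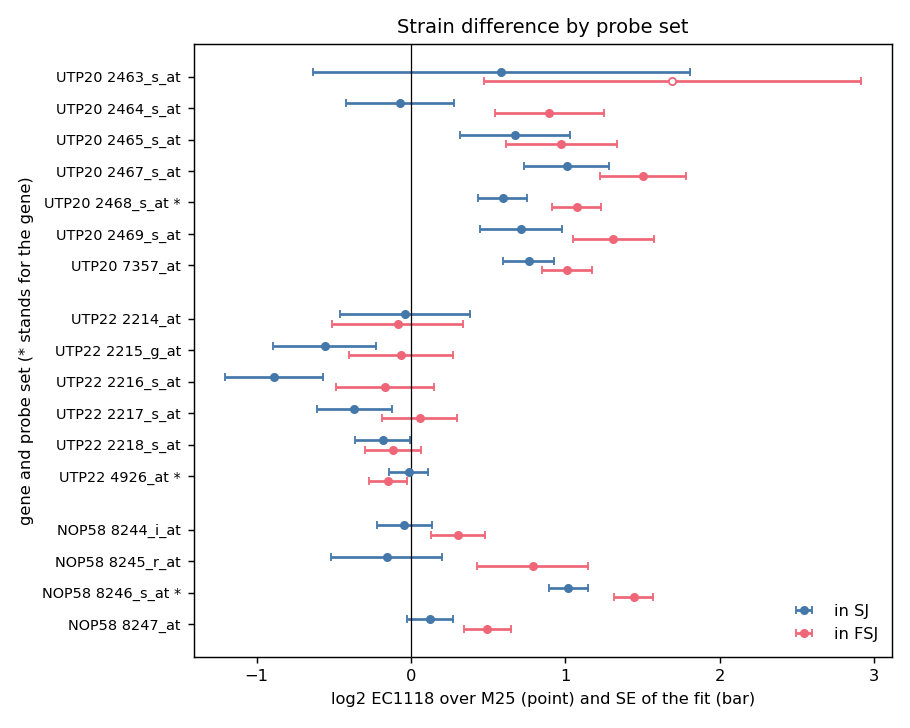
Log2 EC1118 over M25 (points) with the SE of the fit (bars) for each kept probe set of UTP20, UTP22 and NOP58, in SJ and in FSJ; an asterisk marks the probe set that stands for its gene, and the open point has a group not over the background on any array. For UTP20 the filled points in FSJ are all above 0, for UTP22 they lie at or below 0.055, and for NOP58 the starred probe set stands apart from the other 3.

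Of the 5 genes not over the background on every array, RRP36, a small-subunit processome protein, was the lowest. Its signals in M25 were 24.1, 11.3 and 33.9 in SJ and 19.1, 12.9 and 11.5 in FSJ, and in EC1118 they were 2.6, 30.8 and 24.5 in SJ and 36.7, 50.7 and 29 in FSJ. It was not over the background on any M25 array in FSJ, where EC1118 was at least 1.99-fold higher (limma adjusted p = 0.175). Its M25 signal in SJ was at least 1.1-fold above that in FSJ (adjusted p = 0.691). Its fitted value of 1.59 in EC1118, the largest there, came with the single signal of 2.6 on EC1118 in SJ replicate 1. RRP7, NOP12, UTP11 and NOP53 were the others. RRP7 was uneven within groups, and NOP12, UTP11 and NOP53 lay close to the background. Their order across groups cannot be relied on. In FSJ the NOP12 arrays of the strains were only just apart. They had 28.9, 21.3 and 20.5 in M25 and 30.5, 40.6 and 29.4 in EC1118 (limma adjusted p = 0.355).

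The rest of the pathway was described with 132 further genes, of which 40 are small-subunit factors, 52 large-subunit factors, 11 snoRNP proteins, 14 RNA polymerase I genes and 15 genes of the exosome and its partners. In M25, 0 rose and 2 fell (1.52%), below the 3% and 6.55% of all genes. They were RAT1, the nuclear 5′ to 3′ exonuclease, by -0.67 (limma adjusted p = 0.0151), and RRN7, an RNA polymerase I initiation factor, by -0.97 (adjusted p = 0.0295). Neither passed when the arrays were centred on their medians or quantile normalized. In EC1118, 0 of the 132 passed, with 42 at an unadjusted p under 0.05, all higher, which is 31.8% against 11.8% of all genes. Their median there was 0.32 with 127 above 0. Without the pair of arrays that stood apart the median was 0.10 with 99 above 0, and 5 were higher at an unadjusted p under 0.05, 3.79% against 7.16% of all genes.

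Averaged over the strains, 4 of the 132 rose (3.03%) and 0 fell, against 4.63% and 5.82% of all genes. TIF6, which keeps the subunits apart, rose by 0.29 (limma adjusted p = 0.0232), the helicase DBP2 by 0.27 (adjusted p = 0.0264), RPA190, the largest polymerase I subunit, which was named after its value was seen, by 0.27 (adjusted p = 0.0438), and GAR1, an H/ACA snoRNP protein, by 0.34 (adjusted p = 0.046). All 4 missed the threshold without the pair of arrays that stood apart. Of the 21 alternatives, the call was lost in 6 for TIF6, 10 for DBP2, 13 for RPA190 and 16 for GAR1. On averaging its probe sets, RPA190 had 0.097 (adjusted p = 0.674). In FSJ, 46 of the 132 were higher in EC1118 and 1 lower, which is 34.8% and 0.758% against 24.4% and 10.4% of all genes. Quantile normalization gave 29 of the 132 higher and 2 lower, against 16.5% and 13.6% of all genes. Centring gave 22 and 6, against 13.1% and 20.1%. Leaving out the pair of arrays gave 32 and 2, with the share higher near the 21.4% of all genes. Among those higher were RIO1, a kinase of late 40S maturation (1.16, limma adjusted p = 0.000712), BMS1, a GTPase (1.07, adjusted p = 0.000729), NOB1, the endonuclease that makes the 18S end (1.35, adjusted p = 0.00485), RAT1 (1.06, adjusted p = 0.000175) and the exosome helicase MTR4 (0.77, adjusted p = 0.00107). These 5 passed under every alternative run.

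Of 8 regulators, CRF1, a corepressor of ribosomal protein genes in yeast, differed most. It had signals of 109, 98 and 103 in SJ and 24.2, 26.6 and 11.1 in FSJ in M25, and in EC1118 128, 111 and 128 in SJ and 62.5, 35.6 and 74.1 in FSJ. FSJ was below SJ on every array of each strain. CRF1 fell by 2.42 in M25 (limma adjusted p = 0.0012) and by 1.79 on average over the strains (adjusted p = 0.000547). In EC1118 alone its fitted value was -1.16 (adjusted p = 0.112). It passed there after quantile normalization (-1.21, limma adjusted p = 0.0468) and with log2(signal + 16) (-0.95, adjusted p = 0.0378). Without M25 in FSJ replicate 3 it also passed in EC1118 (limma adjusted p = 0.0308). Its difference between the strains in FSJ was 1.51 (adjusted p = 0.00374). The M25 signals of CRF1 in FSJ lay near the backgrounds of those arrays, 21.7, 19 and 16.6, with replicate 3 under its background. The sizes of its fall in M25 and of its strain difference in FSJ are therefore uncertain. SFP1, an activator of ribosome biogenesis and ribosomal protein genes, was higher in EC1118 in FSJ by 0.93 (adjusted p = 0.000729), where M25 had 132.5, 115 and 153 and EC1118 had 242, 262 and 252. Those groups were far apart. IFH1, a coactivator of ribosomal protein genes, differed by 0.46 in FSJ (adjusted p = 0.0353), which was lost after either rescaling. SCH9, STB3, DOT6, TOD6 and FHL1 did not pass in any of the comparisons.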

How the data were processed

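The authors deposited each probe set's intensity per array on a linear scale; the submitters' processing notes name MAS5, with no version or scaling target. Of 9335 probe sets, 60 controls were left out. A probe set was kept if it was over an array's background on at least 3 of the 12 arrays, which left 7349. Probe sets were named through the platform's annotation, and a gene only from a probe set with 1 symbol. A floor of 1 was set before taking log2. The model, 1 mean per group over all 12 arrays, was fitted with lmFit and eBayes (trend by intensity) of limma 3.58.1, R 4.3.3, and Benjamini-Hochberg adjustment ran over the 7349. SE is that of the fit. A fold against a group under the background on all 3 arrays is given as at least that size. Precision is limited by the number of arrays.

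The members and gene lists were chosen with earlier results of these data known, and no p was adjusted over a list alone. Named genes were up to 4 per role by smallest p in M25 and 2 in EC1118, the 6 with the smallest p in each other comparison, and 8 regulators; the other lists followed the same rule. Cytosolic ribosomal protein genes were added by symbol after seeing the data. The scripts were tested on simulated data. Alternatives were quantile normalization, centring arrays on their medians, log2(signal + 16), no filter, a stricter filter, averaging of a gene's probe sets, no intensity trend, only the groups compared, the replicate number as a block, each array left out and, added after seeing the data, the pair of EC1118 arrays that stood apart left out. Neighbouring genes came from the table of assembly R64.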

Additional observations from a re-analysis of the deposited data

How the results depend on the processing

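Of 260 alternative counts of the 60 genes called, 220 stayed within 1.5 times the count given and 40 did not, and no called gene changed direction. Many of the 220 were counts of 0 that stayed 0. Among these were all counts of genes that fell with lipids and all for the difference between the strains' lipid effects. For the lipid effect in M25 (1 higher), centring arrays on their medians gave 3, fitting only the groups compared gave 2, and leaving out each array gave 0 to 2. In EC1118 (1 higher), centring, no filter, only the groups compared, the replicate block and both arrays left out that stood apart each gave 0, and single arrays left out gave 0 to 1. Averaged over the strains (3 higher), centring gave 5 and both arrays left out gave 1. In SJ (4 higher, 0 lower), averaging each gene's probe sets gave 2 higher, only the groups compared gave 2 lower, and single arrays left out gave 2 to 4 higher and 0 to 2 lower. In FSJ (19 higher, 0 lower), quantile normalization gave 7 and 3, centring 7 and 4, both arrays left out 8 and 2, only the groups compared 11 higher, and single arrays left out 7 to 20 higher and 0 to 2 lower. The causes were not tested.

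No pairing of the arrays by replicate number was seen, but arrays of different numbers were not compared, so this does not settle it. Deviations of same-numbered arrays correlated at -0.16 to 0.137 over 18 pairs of arrays, with 2 above 0.1. With the replicate block RRP6 in EC1118 had an adjusted p of 0.0552 and UTP8 on average one of 0.0682. Centring moved the share of all calls that were higher in FSJ over SJ from 31.4% to 70.9% in M25 and from 44.3% to 62.2% on average, and quantile normalization moved it to 43.8% in M25. Under every alternative, RPF2 was called on average, NSA2 in SJ, and NOP4, NOP9, NOP58, NSA2, RRP6 and UTP20 in FSJ. Signals near the background limit RRP36, NOP12, NOP53 and UTP11, and RRP7 on some of its arrays.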

Other observations

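The 80 cytosolic ribosomal protein genes, whose products the biogenesis factors assemble, were described in the same way, with no test of one set against the other. In M25, 14 of them rose with lipids (17.5%) and 0 fell, against 3% and 6.55% of all genes, with a median of 0.27 and 76 fitted above 0. In EC1118, 0 passed limma's test, with 9 higher at an unadjusted p under 0.05, and the median was 0.033. The direct test of the difference between these effects gave 0 calls, with 16 below 0 at an unadjusted p under 0.05 and a median of -0.23. In FSJ, 25 were lower in EC1118 than in M25 (31.2%) and 0 higher, against 10.4% and 24.4% of all genes, with a median of -0.22. These counts depended on the scaling and on other choices. In M25 quantile normalization gave 2 of the 80 risen with a median of 0.11, against 2.72% of all genes. Centring gave 61 with 0.46, against 8.68%. In FSJ the 2 scalings gave 10 and 64 lower, against 13.6% and 20.1% of all genes. After quantile normalization neither share of the 80 was thus above that of all genes. The 60 factors had a median of 0.14 in M25 after quantile normalization. The number risen in M25 was 3 with no intensity trend. It was 5, 2 and 3 on leaving out M25 in SJ replicate 1, 2 and 3 in turn, and 3 and 4 on leaving out replicate 1 and 2 of M25 in FSJ. Over all alternatives it was 2 to 61, and 10 to 64 were lower in FSJ. Without the pair of EC1118 arrays that stood apart, 20 rose in M25 and 27 were lower in FSJ. Many of these genes occur as near-identical pairs, whose probes may be shared. The list was added after the values were seen, so it is a description.

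RRP15 and NOC4, of the large and the small subunit, are the pair of the 60 genes that lie next to each other in the gene order of assembly R64. Their fitted values lay on opposite sides of 0 in M25 with lipids (-0.45 and 0.39) and between the strains in FSJ (0.88 and -0.50), where RRP15 passed the test and NOC4 had a limma adjusted p of 0.08. After quantile normalization or centring, NOC4 was lower in EC1118 in FSJ and RRP15 did not pass.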
